A study of Mus musculus with 2 samples.

Results

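Ralyl-positive tumour cells were examined in allografts of KPC cells, a pancreatic cancer line from a genetically engineered mouse model that uses Pdx1-Cre, a recombinase active in the pancreatic lineage. A member is a barcode with at least 500 genes, 10000 to 60000 unique molecular identifiers (UMIs, counts of captured RNA molecules) and at most 15% mitochondrial UMIs. As a tumour cell it held at least 10 UMIs of the keratins Krt8 and Krt18 together, at most 10 of the leukocyte gene Ptprc, under 1% fibrillar collagen UMIs and under 0.05% Pecam1 and Cdh5 UMIs, and it was called positive with 2 or more Ralyl UMIs. The members were thus chosen by their measured Ralyl, keratin, Ptprc, collagen and endothelial counts, and the differences given below between them and other cells of the same library are descriptions. Of 2123 tumour cells among the 25865 barcodes of both libraries, 206 were positive. Nearly all of them, 194, lay among the 1104 tumour cells of the library labelled KPC-shZEB1, and 12 lay among the 1019 tumour cells of the library labelled KPC-shV. Each library came from 1 orthotopic tumour in the mouse pancreas, grown from cells with a hairpin against Zeb1 or with the control hairpin. Both cell populations share the KPC background, lentiviral transfer and drug selection, and the study's results describe gemcitabine treatment, which the labels do not mention. The strain, sex and age of the 2 mice are not in the labels. Mouse, tumour, dissociation, library and hairpin are the same split, so their parts cannot be told apart, and cells of 1 tumour are no replicates. Therefore no test was made, and each interval in parentheses is a 95% interval for counting error only.

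Ralyl encodes an RNA-binding protein of the RALY and hnRNP C family that is known mainly from the brain. Of the other genes that mark these cells, Zfp804b encodes a zinc finger protein, Cacna2d1 the alpha2delta auxiliary subunit of voltage-gated calcium channels, and Cdh2 the adhesion protein N-cadherin. Carcinoma cells that lose epithelial traits often exchange E-cadherin for N-cadherin, a change that transcription factors such as Zeb1 and Twist1 can drive by binding E-box motifs. Tumours grown from a cultured line can hold cell populations that differ in gene dosage as well as in cell state, and RNA counts alone do not separate these kinds of difference.

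The RefSeq start windows of the 4 genes whose expression followed Ralyl most closely over cells are printed here, since these genes move together. The windows (GRCm38.p6) reach from 250 bases before to 50 bases after the start that RefSeq gives, and capitals mark the E-box CACCTG or its reverse complement CAGGTG, searched on both strands. Zfp804b lies on the minus strand of chromosome 5 (chr5:7344329-7344628), Cacna2d1 on the plus strand (chr5:15934441-15934740), Gulp1 on the plus strand (chr1:44551421-44551720) and Klf12 on the minus strand (chr14:100149747-100150046).
Zfp804b: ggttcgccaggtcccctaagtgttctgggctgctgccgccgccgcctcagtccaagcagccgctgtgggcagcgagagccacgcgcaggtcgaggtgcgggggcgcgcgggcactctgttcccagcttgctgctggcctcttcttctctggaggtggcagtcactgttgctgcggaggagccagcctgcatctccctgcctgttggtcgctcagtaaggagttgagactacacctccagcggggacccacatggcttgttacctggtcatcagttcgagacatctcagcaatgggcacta
Cacna2d1: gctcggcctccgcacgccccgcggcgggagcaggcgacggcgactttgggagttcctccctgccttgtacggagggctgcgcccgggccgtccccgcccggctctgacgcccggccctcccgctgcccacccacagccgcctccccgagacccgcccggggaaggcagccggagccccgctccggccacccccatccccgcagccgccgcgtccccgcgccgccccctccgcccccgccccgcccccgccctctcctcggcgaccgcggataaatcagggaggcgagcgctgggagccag
Gulp1: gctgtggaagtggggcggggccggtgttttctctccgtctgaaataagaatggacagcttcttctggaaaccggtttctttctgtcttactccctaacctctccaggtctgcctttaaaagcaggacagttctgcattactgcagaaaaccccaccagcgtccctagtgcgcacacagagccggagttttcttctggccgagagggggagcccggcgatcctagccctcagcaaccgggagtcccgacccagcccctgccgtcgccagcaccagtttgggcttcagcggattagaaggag
Klf12: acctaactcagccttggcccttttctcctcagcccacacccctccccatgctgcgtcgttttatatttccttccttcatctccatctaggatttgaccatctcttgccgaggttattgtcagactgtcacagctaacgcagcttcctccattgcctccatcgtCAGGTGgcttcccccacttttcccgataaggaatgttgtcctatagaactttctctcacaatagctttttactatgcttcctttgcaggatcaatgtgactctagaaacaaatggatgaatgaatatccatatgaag
The RefSeq start equals the GENCODE gene start for Cacna2d1 and lies 378 and 160 bases inside the gene for Zfp804b and Gulp1. For Klf12 it lies 134.9 kb inside the GENCODE gene, so that window is not at the start of the longest gene model. Klf12 holds 1 E-box, at base 164 of this internal window, and the windows of Zfp804b, Cacna2d1 and Gulp1 hold none. The 4 windows hold 17, 42, 15 and 6 CG pairs in the order printed, where the median over all promoters was 7. Among the 15 genes with the largest rise in Ralyl-positive cells, 12 had a window in the table, and 1 of their 15 windows (6.67%) held the E-box, beside 6640 of all 32851 windows (20.2%).

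Ralyl-positive cells made up 17.6% (15.4 to 19.9) of the tumour cells in the library labelled KPC-shZEB1 and 1.18% (0.610 to 2.05) in the library labelled KPC-shV. In the former, 770 tumour cells held no Ralyl UMI and 140 held exactly 1. The positive cells held 2 to 132 Ralyl UMIs with a median of 15, so most lay far from the threshold. Just inside it, 21 cells held 2 UMIs and 11 held 3, and 121 cells held 10 or more. Leukocytes should lack Ralyl, and 8.77% of the 1893 leukocyte barcodes of the library labelled KPC-shZEB1 held at least 1 UMI at a median depth of 17662 UMIs, and 0.634% held 2 or more. In the library labelled KPC-shV 0.612% of 1144 leukocyte barcodes held at least 1 UMI and 0 held 2, with an upper bound of 0.322%. A single UMI was thus also seen outside tumour cells, and tumour cells with exactly 1 were left out of the comparison. Depth was similar on both sides, with a median of 30735.5 UMIs and 6389 genes in positive cells and 27462 UMIs and 6114 genes in Ralyl-zero cells. Mitochondrial UMIs had medians of 2.60% and 2.70%. A doublet score above 0.2 was found in 3 positive cells (1.55%) and 24 Ralyl-zero cells (3.12%). The libraries shared 46 barcodes, and 0 of these were positive cells.

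Zeb1, the target of the hairpin, was read first as a check of the labels. It reached 188 CPM (183 to 193), that is UMIs per 1000000 UMIs, in tumour cells of the library labelled KPC-shZEB1 and 165 CPM (160 to 169) in those of the library labelled KPC-shV. The level was not lower under the label of the knockdown, so the label is used here as a name only. Within the library labelled KPC-shZEB1, Zeb1 stood at 222 CPM (211 to 234) in Ralyl-positive cells and 179 CPM (173 to 184) in Ralyl-zero cells.

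The other 3 marker genes were all present. Zfp804b (chromosome 5, 6769010 to 7344756, minus strand) had a median of 34.5 UMIs per positive cell and reached 202, while the median Ralyl-zero cell had 0. Its summed level was 1247 CPM (1220 to 1275) in positive cells and 63.2 CPM (60.0 to 66.6) in Ralyl-zero cells, a ratio of 19.7 (18.6 to 20.9). Cacna2d1 (chromosome 5, 15934691 to 16374511, plus strand) had a median of 12.5 UMIs per positive cell and a summed level of 604 CPM (586 to 623), beside 44.2 CPM (41.6 to 47.1). Both genes were seen in 91.8% of positive cells, and in 37.0% and 29.6% of Ralyl-zero cells. Cdh2 (chromosome 18, minus strand) stood at 58.4 CPM (52.7 to 64.6) against 4.66 CPM (3.81 to 5.63), and 61.3% of positive cells held a UMI of it beside 6.75% of Ralyl-zero cells. Expression alone cannot show descent from 1 cell, so the label of a subclone was not checked, and the cells are named by their rule.

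**Figure D1:**
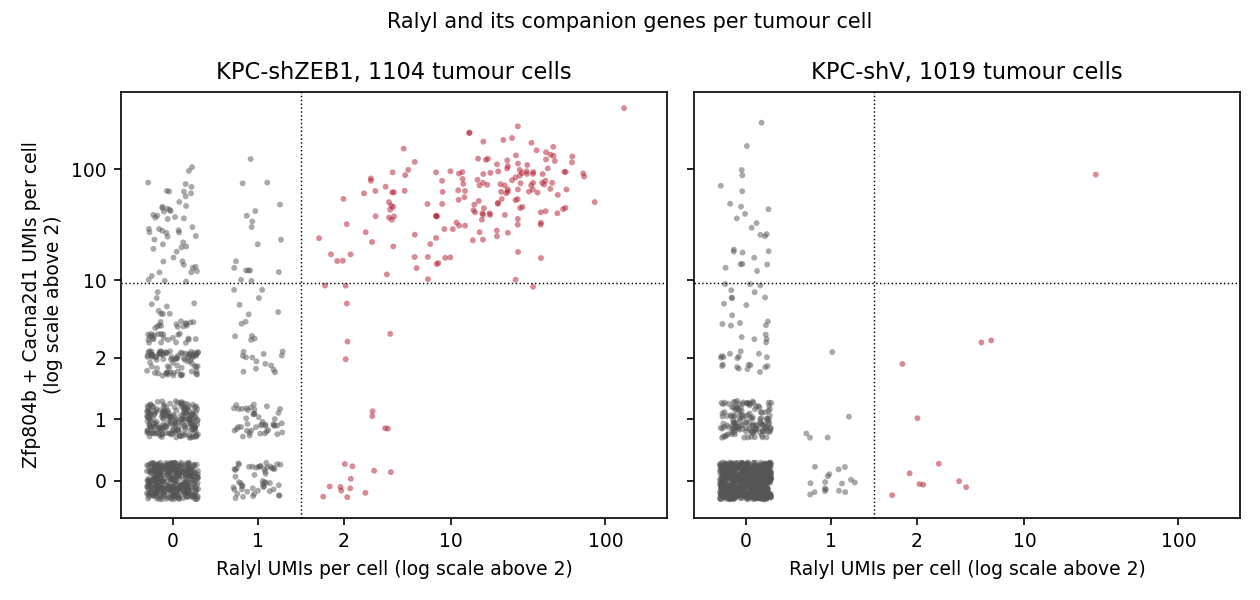
Ralyl UMIs per tumour cell (horizontal) against the sum of Zfp804b and Cacna2d1 UMIs (vertical) in both libraries, with red points for cells of 2 or more Ralyl UMIs, grey points for the others, a small random offset on each point and dotted lines at the limits of 2 and 10 UMIs. In the library labelled KPC-shZEB1, 171 cells lie above both limits, where the library labelled KPC-shV has 1.

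Across the transcriptome, 7078 genes were compared between the 194 positive and the 770 Ralyl-zero cells of the library labelled KPC-shZEB1, each with a mean level of at least 20 CPM. A gene under 20 CPM in 1 group passed this filter only through the other group, where alone it could be called higher. A gene was called at a 2-fold difference on the log2(CPM + 1) scale. On that rule 166 genes (2.35%) were higher and 277 (3.91%) were lower in positive cells, and the median over all compared genes was -0.05. The counts depended on the cells taken, with 92 higher and 35 lower when 1 Ralyl UMI sufficed, 438 and 546 in a stricter tumour gate with 15 positive cells, and 333 and 524 against Epcam-positive Ralyl-zero cells. The 15 genes with the largest rise are, in order, Mdga2, Zfp804b, Cadm2, Rarb, Gulp1, Eya1, Pcdh9, Pcdh19, Cacna2d1, Prune2, Samd12, Pak3, Klf12, Pcdh17 and Cdh2, with log2 differences of 4.30 down to 3.39. Several encode adhesion proteins of neurons. Pcdh9, a protocadherin, was the most abundant of them at 1719 CPM (1687 to 1751) beside 116 CPM (111 to 120), and 91.8% of positive cells held it. Pcdh17 and Pcdh19, of the same family, stood at 80.2 CPM beside 6.46 CPM and at 59.2 CPM beside 3.43 CPM.

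Transcription factors and signalling genes were among the 15 too. Rarb, a retinoic acid receptor, stood at 201 CPM in positive and 11.3 CPM in Ralyl-zero cells, a ratio of 17.7 (15.5 to 20.4). Klf12, a Kruppel-like repressor, stood at 237 CPM beside 20.3 CPM, and Eya1, a developmental coactivator, at 49.8 CPM beside 2.42 CPM. Gulp1, an adaptor for the uptake of dying cells, was detected in 84.0% of positive and 14.3% of Ralyl-zero cells. Not all leading genes were shared by the positive cells. Mdga2, an adhesion protein that restrains synapse formation, was detected in 21.6% of them, 5 cells held 52.5% of its UMIs, and with a stricter tumour gate that left 15 positive cells its log2 difference was -0.43. Cadm2, a synaptic adhesion protein, was detected in 36.6%, and 5 cells held 37.2% of its UMIs. By contrast, 5 cells held 10.2% of the Zfp804b UMIs.

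**Figure D2:**
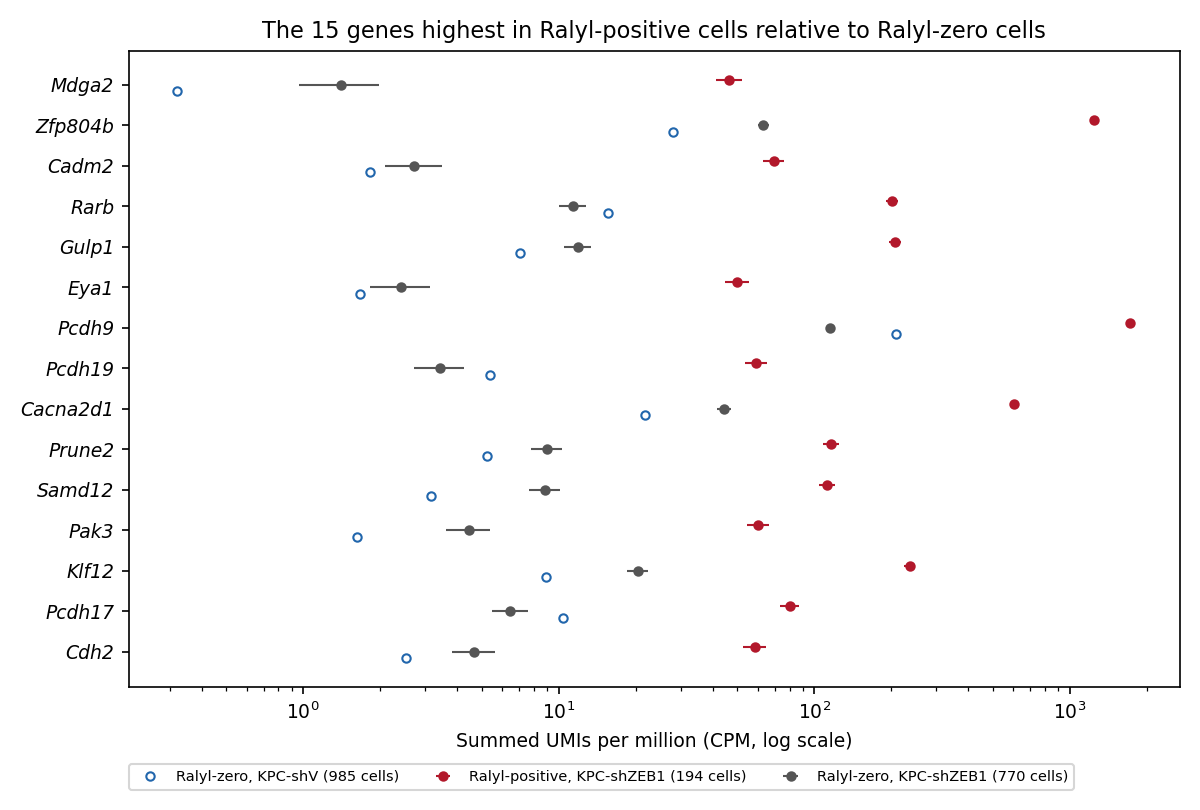
Summed CPM (log axis) of the 15 genes with the largest rise, in Ralyl-positive and Ralyl-zero cells of the library labelled KPC-shZEB1 with 95% Poisson intervals, and in Ralyl-zero cells of the library labelled KPC-shV as open points without intervals. Each red point stands above both others, and for Pcdh9, Rarb, Pcdh19 and Pcdh17 the KPC-shV point lies above the grey one.

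The Pearson correlation with Ralyl over the 1104 tumour cells, thinned to 10000 UMIs each, was highest for Zfp804b (0.64), Cacna2d1 (0.60), Gulp1 (0.57), Klf12 (0.56), Pcdh7 (0.54) and Pcdh9 (0.50). These cells share 1 library, and the values describe it only. The higher genes were long. Their median gene length was 107.8 kb, and 50.6% of them exceeded 100 kb, where the 7078 compared genes had a median of 31.4 kb and 18.0% above 100 kb. The lower genes had a median of 27.1 kb. Long genes carry long introns, whether intronic reads were counted is not stated, and its part in the difference was not tested.

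The positive cells themselves were graded. In the 49 cells with 2 to 4 Ralyl UMIs, Zfp804b stood at 405 CPM and Epcam, an epithelial adhesion molecule, at 360 CPM. In the 24 cells with 5 to 9 UMIs the values were 965 and 60.9 CPM, in the 39 cells with 10 to 19 UMIs 1398 and 101 CPM, and in the 82 cells with 20 or more 1772 and 35.1 CPM. The 140 cells with 1 Ralyl UMI had 448 CPM of Epcam beside 449 CPM in Ralyl-zero cells, and 83.4 CPM of Zfp804b beside 63.2 CPM. Their other marker genes lay further above the Ralyl-zero cells, with Cacna2d1 at 75.1 beside 44.2 CPM, Cdh2 at 11.8 beside 4.66 CPM and Twist1 at 13.1 beside 5.10 CPM. In 12.9% of them, beside 7.01% of Ralyl-zero cells, Zfp804b and Cacna2d1 together reached 10 UMIs. The lowest tier was mixed, since 55.1% of its cells held 10 or more UMIs of Zfp804b and Cacna2d1 together, against 100% of the cells with 5 to 19 Ralyl UMIs and 98.8% of those with 20 or more.

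**Figure D3:**
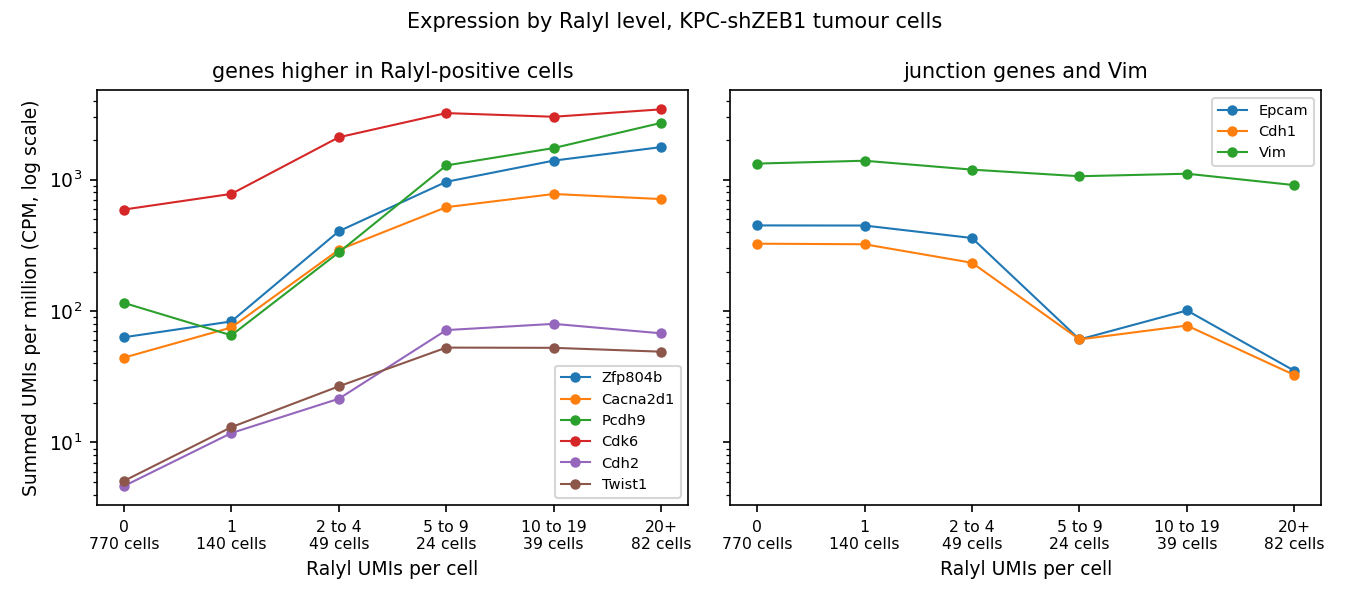
Summed CPM (log axis) by the number of Ralyl UMIs per tumour cell in the library labelled KPC-shZEB1, with the number of cells under each step. Zfp804b rises from 63.2 to 1772 CPM over the steps, Epcam goes from 449 to 35.1 CPM with 101 CPM at 10 to 19 UMIs, and Vim lies between 910 and 1395 CPM.

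The sum of Zfp804b and Cacna2d1 UMIs divided the cells further. Of the 194 positive cells, 171 held 10 or more and 23 held fewer. The 23 cells had 140 CPM of Pcdh9, 1.12 CPM of Cdh2 and 384 CPM of Epcam, near the 116, 4.66 and 449 CPM of Ralyl-zero cells, where the 171 cells had 1970, 67.5 and 97.2 CPM. Twist1 stood at 17.9 CPM in the 23 cells, between 5.10 CPM in Ralyl-zero cells and 48.5 CPM in the 171 cells. The median depth of the 23 cells was 40483 UMIs beside 29137 in the 171 cells, and 2 of the 23 had a doublet score above 0.2 beside 1 of the 171. Conversely, 54 cells of the library labelled KPC-shZEB1 and 26 of the library labelled KPC-shV held 10 or more UMIs of both genes together but no Ralyl. They kept Epcam, at 752 and 1295 CPM, and had little Pcdh9, at 138 and 178 CPM. In the 54 cells Cdh2 stood at 41.6 CPM and Twist1, a transcription factor of mesenchyme, at 41.0 CPM, nearer to the 67.5 and 48.5 CPM of the 171 cells than to the 1.53 and 2.05 CPM of cells with neither. In the 26 cells they stood at 27.1 and 15.6 CPM, beside 1.75 and 2.47 CPM in cells of that library with neither. These cells were chosen by the pair of chromosome 5 genes, so the level of the pair in them was fixed by that choice. Cdh2 and Twist1, which were not part of it, were high in cells beyond the Ralyl-positive ones.

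Epithelial genes were low in the positive cells when all Ralyl-zero cells served as the reference. Of 17 epithelial and junction genes, 12 were compared, 0 were higher and 9 were lower, with a median log2 difference of -1.72. Epcam stood at 137 CPM in positive and 449 CPM in Ralyl-zero cells, a ratio of 0.304 (0.284 to 0.326). Cdh1, which encodes E-cadherin, stood at 97.5 and 326 CPM. The tight junction genes Cldn3 and Cldn4 were lower too, at 58.3 beside 260 CPM and 15.6 beside 80.3 CPM. Tjp1, a junction scaffold, missed the 2-fold limit at 142 and 192 CPM. The basal-like and laminin-332 genes followed, with 0 of 7 compared genes higher, 5 lower and a median of -1.33. Lama3, a chain of laminin-332, stood at 46.1 and 205 CPM. Of the classical and gastric genes, which mark differentiated pancreatic tumours, 0 of 10 were higher and 6 were lower with a median of -1.45, among them the trefoil factor Tff2 at 25.3 and 79.5 CPM and the mucin Muc4 at 9.51 and 53.0 CPM.

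That order depended on the reference cells. Ralyl-zero cells included an Epcam-positive group (276 cells with 3 or more Epcam UMIs and no Prg4 or Grem1) and a group with 3 or more UMIs of the matrix gene Prg4 and the BMP antagonist Grem1 (130 cells). Epcam reached 956 CPM in the former and 59.0 CPM in the latter, with 137 CPM in Ralyl-positive cells between them. Cdh1 reached 653 and 35.6 CPM, with 97.5 CPM in positive cells. Against the Prg4 and Grem1 group the median of the epithelial list was 0.82, of the basal-like and laminin-332 list 0.37 and of the classical list 0.15, all turned upward. Summed over the epithelial list, positive cells had 1255 CPM, between 5183 CPM in the Epcam-positive group and 824 CPM in the other. Summed over the basal-like and laminin-332 list they had 450 CPM, between 1994 and 389 CPM. The classical list summed to 578 CPM in positive cells, under the 1688 and 628 CPM of both groups.

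Mesenchymal genes were divided. Of 16 genes, 13 were compared, 3 were higher and 2 lower, with a median of 0.31. Of all compared genes 2.35% were higher and 3.91% lower, with a median of -0.05. Summed over the list, positive cells had 3802 CPM, under the 4963 CPM of all Ralyl-zero cells. The sum lay between 2927 CPM in the Epcam-positive group and 8613 CPM in the Prg4 and Grem1 group. Cdh2, Twist1 and Prrx1, of which Twist1 and Prrx1 encode transcription factors of mesenchyme, were the higher ones. Twist1 stood at 44.3 CPM in positive and 5.10 CPM in Ralyl-zero cells, a ratio of 8.69 (6.99 to 10.9), and Prrx1 at 51.8 and 11.4 CPM. Fn1, which encodes fibronectin, was lower at 1155 and 2349 CPM, and so was the membrane protease Mmp14 at 25.9 and 94.8 CPM. Vim, the mesenchymal filament gene, stood at 1041 and 1327 CPM and Zeb2 at 304 and 275 CPM, neither past 2-fold. Fibroblast markers were summed at 128 CPM in positive and 219 CPM in Ralyl-zero cells, with Dpt and Lum 2-fold lower, and their part in these values was not tested. Of 5 compared cadherins, with a median of -1.50, Cdh2 was higher while Cdh1, Cdh6 and the intestinal Cdh17 were lower, Cdh6 and Cdh17 at 26.1 beside 118 CPM and at 46.5 beside 133 CPM. Against the Prg4 and Grem1 reference the cadherin median turned to 0.56, Cdh17 to 0.56 and Cdh1 to 1.43.

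Among genes of neuronal adhesion, guidance and synapses, Pcdh9, Cadm2 and 6 others were higher. Of the 44 listed, 15 were compared, 8 were higher and 2 were lower, with a median of 1.08, beside 2.35% of all compared genes higher and a median of -0.05. The list was drawn up with earlier results of these data in view and is no independent support for its direction. Members near 0 in Ralyl-zero cells passed the filter only through positive cells, so they could only be called higher. Among them are Cadm2, at 69.3 and 2.72 CPM, and Sema3a, at 50.9 and 5.89 CPM. The count and the median are descriptions for this reason too. Pcdh7, a protocadherin on chromosome 5, stood at 597 CPM in positive and 58.4 CPM in Ralyl-zero cells, a ratio of 10.2 (9.61 to 10.9). Rbfox1, a neuronal splicing factor, stood at 181 and 48.3 CPM, and the neural cell adhesion molecule Ncam1 at 252 and 119 CPM. Cntn5, a contactin, went the other way at 39.2 and 130 CPM, and so did the guidance cue Sema3c at 60.4 and 132 CPM. Most of the list stayed under the filter, and the defining neuronal marker Rbfox3 had 0 UMIs in positive cells. The 6 neuron markers summed to 86.5 CPM in positive and 58.2 CPM in Ralyl-zero cells, of which Tubb3 alone gave 64.2 and 40.0 CPM. Among calcium channel subunits, 4 were compared, Cacna2d1 was higher, and the pore subunit Cacna1a was lower at 16.3 and 65.7 CPM. Relatives of Ralyl did not follow it, with Raly at 98.4 and 105 CPM and Hnrnpc at 335 and 295 CPM.

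Many of the higher genes lay together near the start of chromosome 5. Over 13.0 Mb, from Cdk6 at 3341485 to the end of Cacna2d1 at 16374511, a block chosen after its values were seen, 32 genes were compared, 21 were higher and 1 was lower, with a median log2 difference of 1.97. These 21 are 12.7% of all higher genes. Summed over the block, positive cells had 14854 CPM and Ralyl-zero cells 4196 CPM, a ratio of 3.54 (3.51 to 3.57), and the ratio lay between 2.56 and 4.43 over the 15 alternatives of the comparison. Cdk6, a kinase of the G1 phase, stood at 2977 CPM beside 593 CPM, a ratio of 5.02 (4.91 to 5.13). Its neighbours Fam133b, Krit1, Ankib1 and Gatad1 had log2 differences of 2.18, 2.24, 2.00 and 1.94. Abcb1b, a drug efflux pump of the multidrug resistance family, stood at 794 and 145 CPM, and its close paralog Abcb1a at 97.8 and 71.7 CPM. Sema3e, a secreted guidance cue, stood at 2191 and 550 CPM and was seen in 99.0% of positive cells. The rise was uneven, since Cdk14 had a log2 difference of 0.24 and the metalloreductase Steap4 -1.02, which became 1.51 against the Epcam-positive reference cells and 0.79 without cells of high doublet score.

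The rise ended with Cacna2d1. The next compared gene, Sema3c, had a log2 difference of -1.12, and of the 453 compared genes on the rest of chromosome 5 only 5 were higher, with a median of -0.20. Per cell, the block held a median of 1.60% of the UMIs in positive cells and 0.295% in Ralyl-zero cells, and 85.6% of positive cells exceeded the 90th percentile of the Ralyl-zero cells, 0.755%. In the cells with Zfp804b and Cacna2d1 but no Ralyl, the block stood at 12555 CPM in the library labelled KPC-shZEB1 and 9768 CPM in the library labelled KPC-shV, beside 3487 and 4132 CPM in cells with neither. These sums include Zfp804b and Cacna2d1, by which the cells were chosen. The 2 genes gave 641 and 424 CPM under the KPC-shZEB1 label and 845 and 469 CPM under the KPC-shV label. Ralyl itself lies on chromosome 3, from 13471655 to 14182287. Of its compared neighbours within 2 Mb, Lrrcc1, E2f5 and Rbis did not rise with it, with log2 differences of -0.11, -0.19 and -0.22. Car13 was higher but just missed the limit at 0.94, with 26.7 CPM in positive and 13.4 CPM in Ralyl-zero cells. Car2, like Car13 a carbonic anhydrase, was lower at -1.47 but at 1.17 against the Prg4 and Grem1 reference cells.

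**Figure D4:**
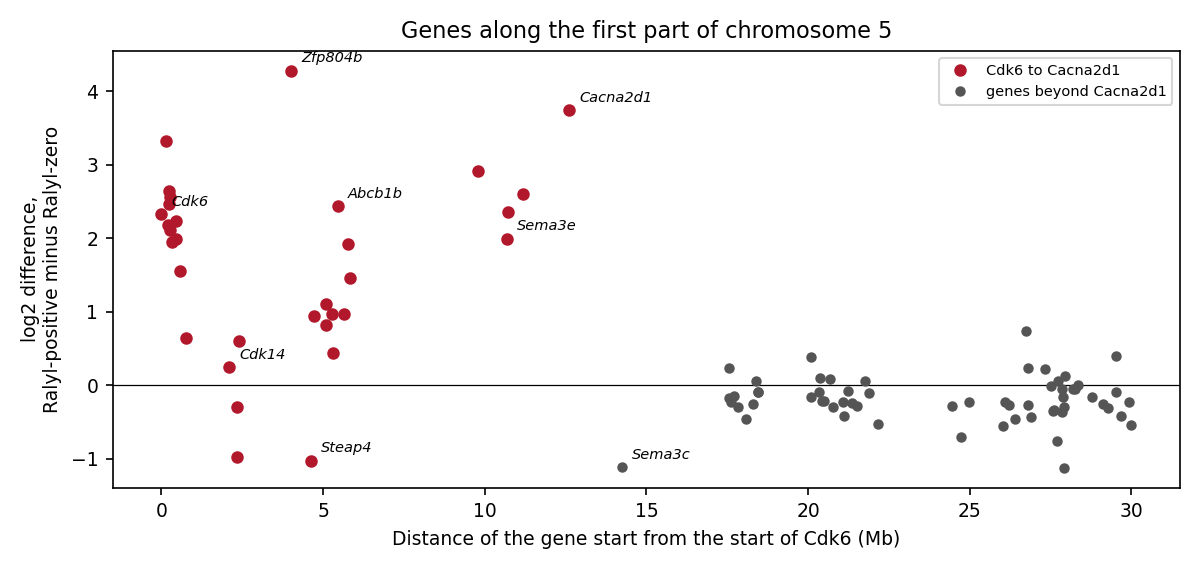
Log2 difference on the log2(CPM + 1) scale between Ralyl-positive and Ralyl-zero tumour cells of the library labelled KPC-shZEB1, for compared genes within 30 Mb of the start of Cdk6, by the distance of the gene start. Red points are the 32 genes from Cdk6 to Cacna2d1, and beyond them the points scatter near or under 0, starting with Sema3c at -1.12.

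Whole chromosomes differed as well. On chromosome 14, 211 of 257 compared genes (82.1%) had a difference above 0, 25 were higher and 2 lower, and the median was 0.37, a 1.29-fold level. Chromosome 17 had a median of 0.32 with 267 of 337 genes above 0, and chromosome 19 one of 0.20. Chromosomes 1, 2 and 16 were low, with medians of -0.33, -0.29 and -0.32, with 63 of 449, 73 of 551 and 37 of 244 genes above 0. Chromosome 14 took a median of 5.21% of the UMIs in a positive cell and 3.66% in a Ralyl-zero cell, and 81.4% of positive cells exceeded the 90th percentile of the Ralyl-zero cells, 4.34%. Chromosome 1 took 4.82% and 6.54%, and 73.2% of positive cells lay under the 10th percentile of the Ralyl-zero cells, 5.11%. Of the 15 leading genes, 4 lie on chromosome 14 (Rarb, Pcdh9, Klf12 and Pcdh17) and 2 on chromosome 5.

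These shifts were largest in cells with both Ralyl and its companions. The 171 positive cells with 10 or more companion UMIs had 5.30% of their UMIs from chromosome 14, 6.52% from chromosome 17 and 4.90% from chromosome 1. The 23 positive cells with fewer had 3.79%, 5.18% and 6.24%, close to the 3.65%, 5.15% and 6.47% of cells with neither. The 54 cells with companions and no Ralyl lay between these groups on chromosomes 14 and 1, at 4.07% and 5.60%, and had 4.98% from chromosome 17. Medians by chromosome kept their sign for chromosomes 1, 2, 14, 16, 17 and 19 against either reference group, for instance 0.40 and 0.33 on chromosome 14. DNA was not measured, so whether gene dosage differed cannot be told from these counts.

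**Figure D5:**
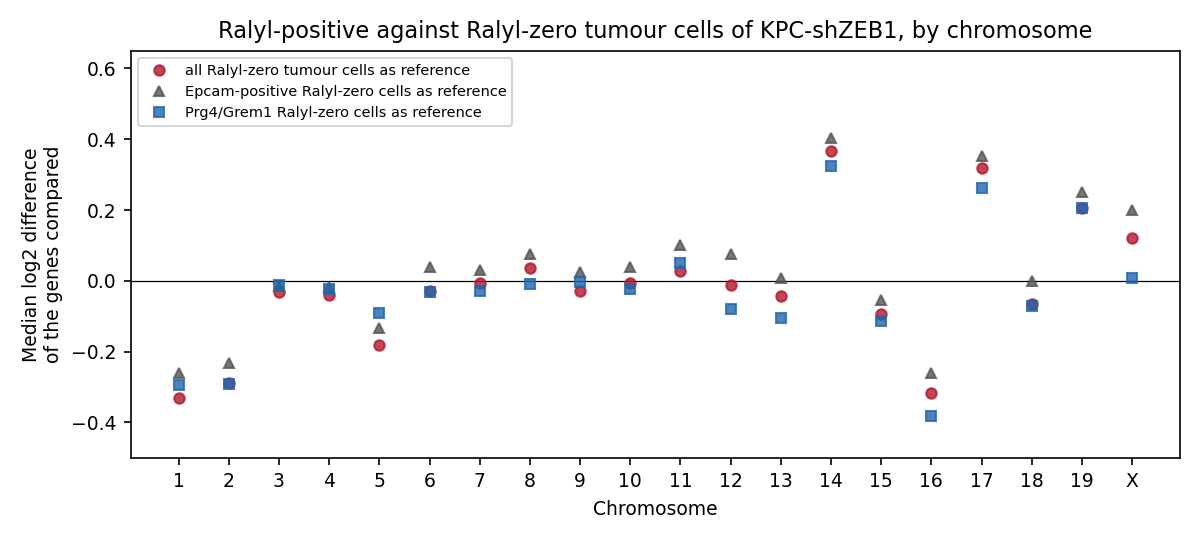
Median log2 difference of the compared genes on each chromosome between Ralyl-positive and Ralyl-zero tumour cells of the library labelled KPC-shZEB1, with all Ralyl-zero cells, the Epcam-positive group or the Prg4 and Grem1 group as the reference. Chromosomes 14 and 17 lie highest, at 0.37 and 0.32 with all Ralyl-zero cells, and chromosomes 1, 2 and 16 lowest.

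Genes of MHC class I presentation, which show peptides to CD8 T cells, had a difference above 0 for 11 of 11 members. Of these 2 were called higher and 0 lower, with a median of 0.66, beside 44.2% of all compared genes above 0, 2.35% called higher and a median of -0.05. H2-K1, a class I heavy chain, stood at 2417 CPM in positive and 1532 CPM in Ralyl-zero cells, a ratio of 1.58 (1.55 to 1.61), and the other heavy chain H2-D1 at 978 and 638 CPM. Both belong to a family of near-identical genes, so the split of reads between them is uncertain. The called genes were the proteasome activator subunits Psme1, at 373 and 184 CPM, and Psme2, at 265 and 124 CPM, both on chromosome 14. Another 7 of the 11 lie on chromosome 17, with log2 differences of 0.52 to 0.89. On chromosomes 14 and 17, 82.1% and 79.2% of all compared genes lay above 0, with medians of 0.37 and 0.32. The members on other chromosomes, B2m and Nlrc5, had differences of 0.27 and 0.25. Macrophage markers, a source of other class I RNA, summed to 697 CPM in positive and 1058 CPM in Ralyl-zero cells. Of the interferon-stimulated genes, 1 of 13 was higher, the regulator Irf1 at 538 and 253 CPM, and the median was 0.34.

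Driver genes of the model were mostly level. Of 11, only Cdk6 was called, and their median was -0.08. Of all compared genes 2.35% were higher and 3.91% lower, with a median of -0.05. Myc, a growth regulator, stood at 208 CPM in positive and 220 CPM in Ralyl-zero cells. Cdkn2a, whose products restrain the cell cycle, came close to the limit at 624 and 316 CPM, a ratio of 1.98 (1.90 to 2.05). Of the cycling genes, 0 of 14 S phase and 0 of 13 G2 and M phase genes were called, with medians of 0.18 and 0.20. Small differences above 0 were found for 12 of the 14 and 13 of the 13, beside 44.2% of all compared genes. In a list of gemcitabine transport and metabolism genes that also holds general drug efflux pumps, 11 genes were compared and the median was 0.26. The only 1 called was the efflux pump gene Abcb1b, which lies in the chromosome 5 block. The nucleoside importer Slc29a1 stood at 65.5 and 34.4 CPM. Hypoxia and glycolysis genes had 0 of 12 called and a median of -0.23, and heat shock and immediate early genes 0 of 13 and a median of 0.04.

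Signals to other cells were mixed. As a background, 2.35% of all compared genes were higher and 3.91% lower, with a median of -0.05. Members under 20 CPM in positive cells, here Erbb3, Csf2, Csf3 and Mmp13, could only be called lower. In the EGF family, with 8 genes compared and a median of -0.68, the ligand Ereg was higher at 296 CPM beside 95.7 CPM, and the ligand Tgfa and the receptor Erbb3 were lower at 20.2 beside 50.6 CPM and 15.5 beside 32.7 CPM. Against the Prg4 and Grem1 reference Erbb3 turned to a log2 difference of 1.94. Of the chemokines and cytokines, 0 of 14 were higher and 2 lower with a median of -0.45, the growth factors Csf2, at 12.9 and 27.3 CPM, and Csf3, at 10.1 and 35.1 CPM. Spp1, which encodes osteopontin, was abundant in both at 8758 and 5837 CPM. In the matrix list, 0 of 14 genes were higher and 2 lower with a median of -0.19, the matricellular Thbs1 at 191 and 400 CPM and the collagenase Mmp13 at 6.59 and 34.2 CPM. Of 4 compared Wnt pathway genes, with a median of -0.51, Lgr4 alone was called, lower.

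The 15 genes with the largest fall are, from the lowest, Pigr, Prl2c3, Ighm, Igkc, Reg2, Prg4, Ctrb1, Anxa10, Pnliprp1, Reg3b, Gm26512, Rnase1, Ugt2b34, Plxna4 and Apob. Prl2c3 has near-identical copies, so its reads are uncertain. Prg4 turned to 4.28 against the Epcam-positive reference, which was chosen to lack it. Against the Prg4 and Grem1 reference Ugt2b34 turned to 1.04, and Ighm, Ctrb1, Reg3b and Rnase1 to between 0.0065 and 0.19. Several are immunoglobulin or acinar genes that a few Ralyl-zero cells carried. In those cells as a whole, 5 cells held 89.6% of the Ighm UMIs, 85.6% of those of the protease precursor Ctrb1 and 79.9% of those of Reg3b, and the median cell held 3 UMIs of Ctrb1 on both sides. All 6 compared acinar markers were 2-fold lower, beside 3.91% of all compared genes. Their sum was 258 CPM in positive and 1332 CPM in Ralyl-zero cells, and their part in other differences was not tested. The median of these markers turned to 0.06 in the stricter gate and to 0.13 without cells that held 5 or more immunoglobulin and acinar UMIs, which were 91.2% of positive and 78.8% of Ralyl-zero cells. Other falls were spread over many cells. Apob, a lipid carrier, was detected in 79.0% of Ralyl-zero cells and stood at 401 CPM there beside 69.9 CPM in positive cells. Plxna4, a semaphorin coreceptor, was detected in 47.7% beside 25.3%, at 73.4 and 11.8 CPM. The transcript Gm26512 was detected in 60.0% beside 19.1%, and Anxa10, a gastric annexin, stood at 107 and 16.4 CPM. T cell, granulocyte and endothelial markers summed to 33.9, 504 and 43.8 CPM in positive and 39.7, 588 and 20.1 CPM in Ralyl-zero cells. B cell, endocrine, Schwann cell and mesothelial markers summed to 64.7, 20.5, 28.1 and 42.8 CPM and to 442, 15.5, 52.2 and 77.6 CPM.

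In the library labelled KPC-shV, 1 of the 12 positive cells held all 4 marker genes. It held 29 Ralyl, 54 Zfp804b, 36 Cacna2d1, 5 Cdh2 and 8 Twist1 UMIs and no Epcam among 53684 UMIs. Its 7 Pcdh9 and 9 Cdk6 UMIs gave 130 and 168 CPM, under the 210 and 460 CPM of the Ralyl-zero tumour cells of that library. The other 11 cells held 2 to 6 Ralyl UMIs and no Zfp804b. Their block level was 3936 CPM, beside 4132 CPM in cells of that library with neither Ralyl nor the companions. Of the 15 leading genes, 12 had the same direction in the 12 cells as in the library labelled KPC-shZEB1, and 13 of the 15 lowest genes did. The interval of the ratio also left out 1 for only 7 of the leading and 10 of the lowest genes. The share of all compared genes with the same direction is not given here. The 1 cell with all 4 markers gave all of the Zfp804b and Cdh2 UMIs and 36 of the 45 Cacna2d1 UMIs. No difference between the libraries was tested.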

How the data were processed

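Single-cell RNA was measured in 2 KPC allografts, 1 per group, with the 10x Chromium 3′ chemistry. The authors made the deposited UMI counts with Cell Ranger 7.0.1 against mm10, per the labels. The matrices hold barcodes called as cells, 13271 with 143461224 UMIs (KPC-shZEB1) and 12594 with 130941086 UMIs (KPC-shV). Whether introns were counted is not given in the sources used here. The members, gene lists, comparison and alternatives were chosen with earlier results of these data known.

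UMIs were summed over cells and given per 1000000 UMIs (CPM). Poisson intervals, Clopper-Pearson intervals for shares, and ratio intervals conditional on the summed counts are exact and cover counting error only; the ratio code was tested on simulated data. Genes with a mean of both groups of at least 20 CPM were compared, without the genes of the gate and mitochondrial genes, on log2(CPM + 1). Named genes are the 15 with the largest and the 15 with the smallest difference, the 4 markers, list members and genes within 2 Mb of Ralyl; genes of the chromosome 5 block and those under the filter were named after their values were seen. Doublets were scored with Scrublet in scanpy 1.11.5 and kept. Of 32285 genes, 32235 matched GENCODE M21 (GRCm38, the build mm10), which gave 1-based positions. Promoters are from RefSeq (GRCm38.p6). Python 3.11.15 was used. Values of some list members are not reported here. The alternatives changed the UMI limits, the Ralyl minimum, the tumour gate, doublets, depth, averaging, reference cells, filter and pseudocount.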

Additional observations from a re-analysis of the deposited data

Results flagged for a closer look

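Pigr, the transporter of IgA across epithelia, differed in direction between the libraries. Positive cells stood at a ratio to Ralyl-zero cells of 0.0642 (0.0385 to 0.101) under the KPC-shZEB1 label, and in the library labelled KPC-shV, where 12 positive cells held 35 Pigr UMIs, it was 3.39 (2.34 to 4.77). Under the KPC-shZEB1 label Pigr stood at 2.91 CPM in positive cells. It reached 93.2 CPM in the Epcam-positive and 3.29 CPM in the Prg4 and Grem1 group of Ralyl-zero cells. The positive cells of the 2 libraries were also unlike, since 11 of the 12 under the KPC-shV label held no Zfp804b. The difference was not tested.

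Ralyl also appeared outside the cells described. Of the 217 barcodes above 60000 UMIs in the library labelled KPC-shZEB1, 19.8% (14.7 to 25.7) held 2 or more Ralyl UMIs, beside 3.46% (1.67 to 6.27) of 289 in the library labelled KPC-shV. Of the barcodes within the limits but outside the tumour gate, 1.01% (0.675 to 1.46) of 2760 and 0.158% (0.0326 to 0.461) of 1897 did.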

How the results depend on the processing

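The share of positive cells in the library labelled KPC-shZEB1 was 30.3% with 1 Ralyl UMI, 13.1% with 5, 13.3% after thinning to 10000 UMIs, and 9.87% in a stricter gate (30 keratin UMIs and no Ptprc) that left 15 positive of 152 tumour cells. In the library labelled KPC-shV it was 3.34% with 1 UMI, 0.589% with 3, 0.294% with 5 and 0.196% after thinning. The counts of higher and lower genes were 92 and 35 with 1 Ralyl UMI, 438 and 546 in the stricter gate, 333 and 524 against the Epcam-positive reference, 517 and 654 without cells of 5 or more immunoglobulin and acinar UMIs (17 positive and 163 Ralyl-zero cells left, an alternative chosen after seeing the data), and 500 and 1003 with no filter. Against the Prg4 and Grem1 reference 184 genes were lower. The other 31 values of these shares and counts stayed within the main interval or within 1.5 times the main count. Of 450 values of the 30 leading genes over 15 alternatives, 437 kept their direction. These genes were picked as the extremes of the main comparison, and the alternatives largely reuse its cells, so this count is a description only. Log2 differences or list medians that turned were, against the Prg4 and Grem1 reference, 0.19 for Ighm, 0.0833 for Ctrb1, 0.15 for Reg3b, 0.00647 for Rnase1, 1.04 for Ugt2b34, 1.17 for Car2, 0.47 for Ctse, 0.0217 for Itga6, 0.13 for Hnf4a, 0.56 for Cdh17, 0.25 for Cldn4, 0.40 for Cldn3, 1.43 for Cdh1, 1.94 for Erbb3, 1.04 for Krt19, 1.22 for Muc4, 1.27 for Tff2, 1.20 for Epcam, 0.64 for Lama3, 0.82 for the epithelial and junction list, 0.56 for the cadherins list, 0.15 for the classical and gastric list, 0.37 for the basal-like and laminin-332 list and 0.16 for the acinar marker list. With 1 Ralyl UMI they were 0.10 for Reg2, 0.0124 for Ctrb1 and 0.12 for the acinar marker list. In the stricter gate they were -0.43 for Mdga2, 0.33 for Reg2, 0.19 for Ctrb1, 0.00466 for Pnliprp1, 0.32 for Rnase1, 1.41 for Steap4 and 0.0643 for the acinar marker list. Against the Epcam-positive reference they were 4.28 for Prg4 and 1.51 for Steap4. Without doublet scores above 0.2 the value was 0.79 for Steap4, and without the immunoglobulin and acinar cells 0.13 for the acinar marker list. Prg4 turned because the Epcam-positive reference was chosen without it; the cause of the others was not tested. Depth limits genes under the filter, and no replicate block could be fitted. No paired analysis was possible because each group has 1 library.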

Other observations

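Some genes under the filter of 20 CPM had large ratios, chosen here after their values were seen. Ncam2, a neural adhesion gene, stood at 19.8 CPM in Ralyl-positive and 0.703 CPM in Ralyl-zero cells of the library labelled KPC-shZEB1, and was detected in 19.1% and 1.43% of them. Plvap, a gene of fenestrated endothelium, stood at 26.5 and 4.48 CPM and was detected in 47.4% and 11.6%, while the endothelial markers Kdr and Cldn5 stood at 1.84 and 0.307 CPM in positive cells. Snai2, a transcription factor of epithelial-mesenchymal transition, stood at 7.97 and 1.23 CPM, the ligand gene Wnt5a at 8.74 and 1.36 CPM, and the synaptic vesicle gene Syt1 at 9.66 and 1.14 CPM.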
